A study of Mus musculus with 6 samples.

Results

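NMPs B is a cluster of 1689 cells among the 26968 cells of a single-cell RNA-seq series on mouse stembryos. Its members were taken by the cluster name that the authors deposited for each cell, 1 of 12 names, and were matched by cell name to the deposited counts. Nearly all of them came from a single library: 1632 cells (96.6%) belonged to the second replicate of whole stembryos at 96 h, 43 to the first 96 h replicate, 10 to the second 120 h replicate and 4 to the posterior part at 120 h. Stembryos, also called gastruloids, are aggregates of mouse embryonic stem cells that elongate and lay down trunk tissues in culture. They were wild type (wt mES cells, EmbryoMax 129/SVEV) in all 6 libraries, received a pulse of the Wnt agonist CHIR99021 on the third day, and were harvested 96 h or 120 h after the aggregates were set up. Whole stembryos gave 2 libraries at each time, and the anterior part and the posterior part at 120 h gave 1 library each, each from a pool of stembryos. Stembryos that had not elongated by 120 h were discarded, and the labels do not say whether replicates came from separate cultures.

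Neuromesodermal progenitors (NMPs) are cells at the posterior end of the elongating embryo that feed the spinal cord and the presomitic mesoderm (PSM), the tissue that segments into somites. They co-express the mesodermal factor T (Brachyury) and the neural and pluripotency factor Sox2, and Wnt and FGF ligands made in the same region maintain them. They arise from the epiblast, the pluripotent epithelium that precedes gastrulation, and during their lifetime the Hox genes are switched on in order along each cluster. Cyp26a1, an enzyme that degrades retinoic acid, protects them from the differentiation signal of the neighbouring mesoderm.

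The cells of NMPs B were sorted into this cluster from the same expression values that are described here, so its levels beside other clusters are a description and no test was made. UMIs, the molecules counted by their unique identifiers, were summed over the cells of a cluster in a library and given as counts per 1000000 (CPM), a share of the UMIs of that sum. Square brackets hold exact 95% intervals, Poisson for a level, binomial for a share or for a ratio of 2 sums, and cover counting error only. A sum that holds cells of a single library has no replicate. A gene was counted in a comparison where the mean CPM of both sums reached 10, and called past 2-fold where (CPM + 1) of the sums differed by at least that factor.

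NMPs B made up 61.6% [59.7, 63.5] of the 2649 cells in the second 96 h library and 0.871% [0.631, 1.17] of the 4938 cells in the first. In the second library 315 cells were NMPs A and 601 were early PSM. The first library held 2765 NMPs A and 2006 early PSM cells. At 120 h the cluster held 0.373% of the second replicate and 0.0507% of the posterior part. The first 120 h replicate had 0 of 4867 cells, which allows a share of up to 0.0616%, and the anterior part had 0 of 3944, which allows up to 0.0761%. The 96 h libraries carry different batch numbers (1 and 4) and 10x chemistries (V3 and V3.1) in the deposited table, so the cluster, the replicate, the batch and the chemistry cannot be told apart for most of its cells.

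**Figure D1:**
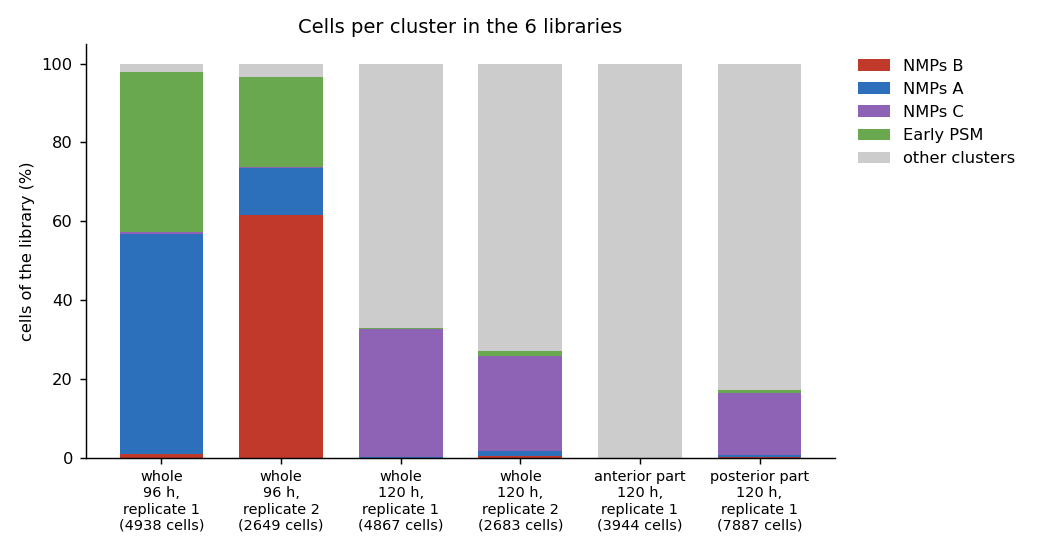
Share of cells per cluster (percent of the library's cells, vertical axis) in each of the 6 libraries (horizontal axis, with the number of cells). NMPs B fills 61.6% of the second 96 h library and 0.871% of the first.

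The median NMPs B cell of the second 96 h library carried 8870.5 UMIs, against 8680 in NMPs A and 8423 in early PSM of that library. The medians in the first library were 20479, 23003 and 22880. Mitochondrial UMIs had a median of 1.99% in NMPs B and 1.99% in NMPs A of the second library. By the deposited cell-cycle calls 31.1% [28.8, 33.4] of NMPs B cells were in G1, 28.7% [26.5, 30.9] in S and 40.3% [37.9, 42.7] in G2M, and 32.1%, 27.0% and 41.0% of NMPs A of the same library. Over all libraries 75 cell barcodes occurred in more than 1 library, and 7 NMPs B cells carried such a barcode.

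The cells expressed genes of neuromesodermal progenitors. All 14 genes of a fixed NMP list were above 10 CPM in the second 96 h library. So were 10 of the 14 in the deposited cluster of pluripotent and primordial germ cells (Pluripotent/PGC) of that library. The list summed to 1840 CPM in NMPs B, 1992 in NMPs A, 908 in early PSM and 1056 in Pluripotent/PGC. In NMPs B of that library, the highest members included the following. Cdx2, a caudal homeobox factor that acts above the trunk Hox genes, reached 354 CPM, Fgf8 299, Nkx1-2 203, T 147 and Sox2 143. The 43 cells of the first library had 347, 344, 119, 256 and 57.6 CPM for the same genes.

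A working description of these cells as early epiblast-like was set beside the marker genes. Of 16 epiblast genes, 9 were above 10 CPM in NMPs B of the second 96 h library, among them Dnmt3b at 112 CPM, Lin28a at 316 and Pou5f1 at 57.8. NMPs A of that library had 92.8, 303 and 9.42 CPM, and the list summed to 841 CPM in NMPs B and 709 in NMPs A. Of the 9 list members counted between them 7 had ratios above 1, and Pou5f1 alone was past 2-fold. Other members of the list were near or at the floor. Of the 16, 3 were under 1 CPM, Otx2 with 0 UMIs in 15325334, Fgf5 at 0.914 CPM and Tdgf1 at 0.261. Utf1 stood at 4.44 CPM. Of 12 naive pluripotency genes 2 were above 10 CPM, Dppa5a at 61.5 and Klf5 at 14.6, and Nanog stood at 2.48. Pluripotent/PGC of the same library, with 35 cells, held 13 of the 16 epiblast genes above 10 CPM, with a sum of 2014 CPM. It held 9 of the 12 naive genes above 10 CPM and had 4293 CPM of Dppa5a, 643 of Pou5f1 and 107 of Nanog. That description is not used further, and the name NMPs B is kept here.

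The 8 marker genes given for the cluster are Wnt8a, a Wnt ligand of the primitive streak; Apln, the secreted ligand of the apelin receptor; Fgfbp3, a secreted carrier of FGFs; F2rl1, a protease-activated receptor; Cdh1, the epithelial cadherin; Sprr2a3, a small protein of cornified epithelia; Stmn2, a microtubule-destabilising protein of neurons; and Pou5f1 (Oct4), the pluripotency factor. Each was above 20 CPM in NMPs B of the second 96 h library, yet their patterns fell into separate kinds. Among 41 sums with at least 20 cells, NMPs B of that library ranked 1 for Wnt8a, Sprr2a3 and Stmn2, 2 for F2rl1 and Apln, 3 for Pou5f1 and Fgfbp3 and 4 for Cdh1. The Pluripotent/PGC cluster of the same library stood above it for F2rl1, Apln, Pou5f1 and Cdh1, and next to it for Wnt8a at 54.8 CPM [33.0, 85.6].

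Wnt8a had 60.4 CPM [56.6, 64.4] in NMPs B of the second 96 h library, 6.28 [3.72, 9.93] in NMPs A and 8.78 [6.43, 11.7] in early PSM. In the first library it had 14.9 [8.16, 25.1], 2.38 [2.02, 2.78] and 1.93 [1.56, 2.37] in the same order. It was thus 9.62-fold [6.05, 16.3] higher than in NMPs A in the second library and 6.28-fold [3.35, 10.8] in the first. Wnt8a is a given marker of cells clustered on these values, and the intervals cover counting error only, so these gaps are a description. NMPs B itself differed 4.05-fold between the libraries.

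Pou5f1 had 57.8 CPM [54.0, 61.7] in NMPs B, 9.42 [6.21, 13.7] in NMPs A and 28.6 [24.2, 33.6] in early PSM of the second library. In the first it had 35.2 [24.2, 49.4], 6.12 [5.54, 6.75] and 5.65 [5.00, 6.36]. Early PSM was above NMPs A in the second library alone, and its own level moved with the library, from 5.65 to 28.6 CPM. The ratio of NMPs B to NMPs A was 6.13 [4.18, 9.35] and 5.75 [3.90, 8.21]. The level in NMPs B was nevertheless far under that of Pluripotent/PGC cells, and so was the company it kept. For each UMI of Pou5f1, NMPs B had 1.07 UMIs of Dppa5a, early PSM 1.07 and NMPs A 1.74, against 6.67 in Pluripotent/PGC of the same library. The first library had 0.697 in NMPs B and 0.386 in NMPs A, so the order of these 2 clusters turned, and the NMPs A value of the second library rests on 27 UMIs of Pou5f1.

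Cdh1 had 25.7 CPM [23.2, 28.4] in NMPs B, 4.89 [2.67, 8.20] in NMPs A and 1.72 [0.786, 3.26] in early PSM of the second library. Levels in the first library were 23.5 [14.7, 35.5], 3.29 [2.87, 3.76] and 0.332 [0.190, 0.540]. F2rl1 had 26.4, 6.98 and 0.955 CPM in the second library and 22.4, 2.98 and 0.249 in the first. Both genes stood in the same order in the 2 libraries, and their levels in NMPs B were within 1.18-fold of each other between libraries. Apln had 21.1, 5.58 and 2.10 CPM in the second library and 13.9, 3.83 and 2.56 in the first. Stmn2 had 102, 54.5 and 38.2 CPM in the second library and 97.0, 35.8 and 11.7 in the first. Stmn2 was past 2-fold over NMPs A in the first library alone, at 2.71 [2.17, 3.35] against 1.88 [1.59, 2.23] in the second.

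Sprr2a3 and Fgfbp3 did not single out NMPs B in this way. Sprr2a3 had 107 CPM in NMPs B, 28.6 in NMPs A and 77.5 in early PSM of the second library, and 36.3, 6.42 and 3.03 in the first. Early PSM alone thus differed from 3.03 to 77.5 CPM between the libraries, so the gene moved with the library as well as with the cluster. Pou5f1 and Stmn2 were also past 2-fold higher in early PSM of the second library than of the first, and so were the naive genes Dppa5a and Klf5. Sprr2a3 lies on chromosome 3 at 92285417-92291405 (GRCm38) beside Sprr2a1 and Sprr2a2, near-identical copies among which the counting could split reads, and its count is uncertain for that reason. Fgfbp3 had 219 CPM in NMPs B and 223 in NMPs A of the second library, a ratio of 0.984 [0.904, 1.07]. It had 54.4 and 91.4 CPM in the first library, where NMPs B was the lower at a ratio of 0.595 [0.442, 0.783].

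**Figure D2:**
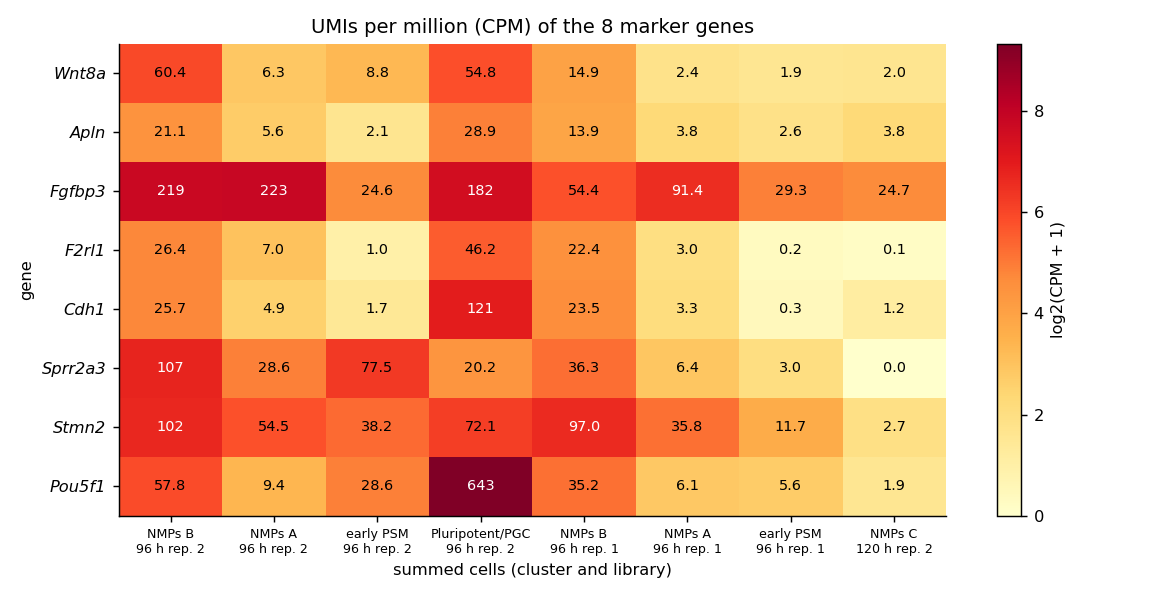
CPM of the 8 marker genes (vertical axis, printed in each cell and coloured by log2 of CPM + 1) in summed cells of 8 clusters and libraries (horizontal axis). Wnt8a, Cdh1, F2rl1 and Pou5f1 are higher in NMPs B than in NMPs A and early PSM in both 96 h libraries. Sprr2a3, and to a lesser degree Pou5f1, is also raised in early PSM of the second library, and Fgfbp3 is as high in NMPs A.

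Counted per cell, the markers were sparse. After each cell was thinned to 5000 UMIs, which left 1599 of the NMPs B cells of the second 96 h library and left out 33, a median of 2 of the 8 markers had a UMI in a cell and 27.5% of cells had at least 3. The median was 1 in NMPs A, with 1.94% of 310 cells at 3 or more, and 0 in early PSM, with 2.56% of 587 cells. Of the first library, 6.98% of the 43 NMPs B cells and 0.506% of 2765 NMPs A cells had at least 3. Without thinning the shares were 51.8% and 9.84% in NMPs B and NMPs A of the second library.

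Pou5f1 was detected in 22.0% [20.004, 24.1] of the thinned NMPs B cells of the second library and in 20.9% [10.0, 36.0] of those of the first. It was detected in 4.84% [2.73, 7.86] and 3.18% [2.56, 3.91] of NMPs A, in 12.8% [10.2, 15.8] and 3.39% [2.64, 4.28] of early PSM, and in 93.9% of 33 Pluripotent/PGC cells. Spinal cord A of the second library, a neural cluster that should lack the gene, had 0 of 37 cells with a UMI, which leaves shares of up to 9.49% possible. Dppa5a, however, had a UMI in 3 of these 37 cells, 8.11% [1.70, 21.9]. Its shares in the second library were 18.9% in NMPs B, 7.10% in NMPs A and 11.8% in early PSM. Wnt8a was detected in 24.6% [22.6, 26.8] of NMPs B, 2.90% [1.34, 5.44] of NMPs A and 4.09% [2.64, 6.02] of early PSM in the second library, and in 9.30% [2.59, 22.1], 1.08% and 0.997% in the first. Pou5f1 was not detected at this depth in most NMPs B cells, and the cells with a UMI were more frequent than in NMPs A in both libraries.

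T and Sox2, the pair that defines an NMP, had a UMI together in 16.6% [14.8, 18.5] of thinned NMPs B cells of the second library, 16.8% [12.8, 21.4] of NMPs A and 1.87% [0.939, 3.33] of early PSM. Shares in the first library were 23.3% [11.8, 38.6], 17% [15.6, 18.4] and 0.798% [0.457, 1.29]. The intervals of NMPs B and NMPs A overlapped widely in each library, and both were above early PSM. The product of the single shares was 19.9% in NMPs B of the second library, above the interval of the share found, and 20.3% in NMPs A, within it. Pou5f1 and T were found together in 12.0% [10.5, 13.7] of NMPs B cells and 3.55% [1.78, 6.26] of NMPs A of the second library, and Pou5f1 and Cdh1 in 3.88% [2.99, 4.94] of NMPs B and in 0 of 310 NMPs A cells. For these pairs the products in NMPs B were 9.58% and 2.38%, both under the interval of the share found. Pou5f1 and Sox2 were found together in 8.38% [7.07, 9.85] of NMPs B cells, with a product of 10.1% above it. Wnt8a and Pou5f1 were found together in 7.07% [5.86, 8.43], with a product of 5.42% under it. Thinned to 3000 UMIs, the products for these pairs, 4.52% and 2.33%, lay within the intervals of the shares found. In the 43 NMPs B cells of the first library the products of all pairs named here lay within their intervals at 5000 UMIs. The shares were not tested against the products. Median depths before thinning are those given above.

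**Figure D3:**
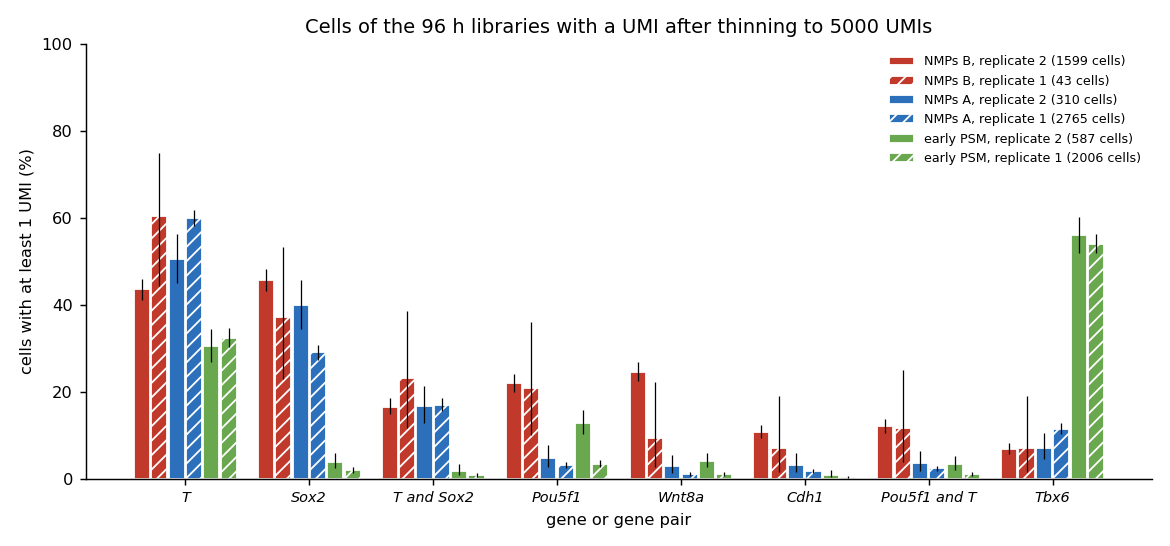
Cells with at least 1 UMI of a gene, or of both genes of a pair (percent, vertical axis), after thinning to 5000 UMIs, in NMPs B, NMPs A and early PSM of the 96 h libraries; bars are shares and lines exact 95% binomial intervals. T and Sox2 are shared by NMPs B and NMPs A, and Pou5f1, Wnt8a and Cdh1 are more frequent in NMPs B, while Tbx6 marks early PSM.

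NMPs B and NMPs A of the second 96 h library were close to each other. Of 7870 genes counted, 32 (0.407%) were past 2-fold higher and 10 (0.127%) past 2-fold lower in NMPs B. In the first library, with 43 cells in the smaller sum, 79 of 7544 (1.05%) were higher and 49 (0.65%) lower. Set beside this, NMPs A of the second library had 105 of 7695 genes (1.36%) past 2-fold higher and 20 (0.26%) lower than NMPs A of the first. Early PSM had 139 of 7599 (1.83%) higher and 35 (0.461%) lower. The median log2 ratio was 0.115 for NMPs A and 0.120 for early PSM, a shift to the higher side, and these counts were made on CPM alone. In the second library the gap between the 2 clusters was thus smaller than the gap between libraries for a cluster of the same name, while in the first library, with few NMPs B cells, it was of like size.

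The genes highest in NMPs B over NMPs A in the second library were Wnt8a, Fst, Pou5f1, Mt2, Sprr2a3, Dppa5a, Mt1, Crabp1, Chchd10 and Hotairm1. Of these 10, 9 were also higher in NMPs B of the first library, 7 of them past 2-fold, of which Wnt8a was under the filter there. Fst (follistatin), a secreted inhibitor of activins and BMPs, had 130 CPM against 19.6 in the second library and 68.2 against 8.11 in the first. The ratios were 6.62 [5.08, 8.80] and 8.42 [6.39, 10.9]. Fst was not particular to NMPs B, with 395 CPM in Pluripotent/PGC of the second 96 h library. The deposited cluster Somite B of the first whole 120 h replicate had 127 CPM. The metallothioneins, which bind zinc and copper, were higher in both libraries. Mt1 had 122 against 45.0 CPM and 50.1 against 18.4, and Mt2 64.1 against 12.9 and 24.5 against 8.47. Dppa5a, an RNA-binding protein of pluripotent cells, had 61.5 against 16.4 CPM and 24.5 against 2.36. Over early PSM, Dppa5a was within 2-fold in the second library and past 2-fold higher in the first. Its level in early PSM was past 2-fold higher in the second library than in the first, so it moved with the library too. Chchd10, a mitochondrial protein, had 76.7 against 29.7 and 45.9 against 25.2, and Hotairm1, a non-coding RNA of the HoxA cluster, 133 against 63.5 and 72.5 against 43.9.

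Crabp1, a retinoic acid-binding protein, was the exception. It had 410 CPM in NMPs B and 156 in NMPs A of the second library, but 28.8 and 43.5 in the first, a ratio of 2.62 [2.38, 2.89] in one and 0.661 [0.435, 0.964] in the other. Early PSM had 802 CPM in the second library and 450 in the first.

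Of all 32 genes past 2-fold higher in the second library, 22 were counted in the first, where 17 were past 2-fold higher and Crabp1 alone stood on the other side. The filter takes the mean of both sums, so a gene can be counted through its higher sum alone. Hoxb5, for one, was counted in the first library through NMPs B, at 20.3 against 7.56 CPM. Genes not high in NMPs B could drop out there, so 17 of 22 is not a rate of agreement. The 17 held Bst2, an interferon-induced membrane protein, at 46.3 against 7.68 CPM in the second library and 76.8 against 11.2 in the first, and Apoe, the lipid carrier, at 91.0 against 43.6 and 61.9 against 17.5. Of the 10 genes past 2-fold lower in the second library, 8 were counted in the first, where Apcdd1, Gnal and Trim2 were past 2-fold lower and Itgb8 stood on the other side. The same genes placed the cells of both libraries in the cluster, so the first library is a second look and not an independent one.

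The genes lowest in NMPs B were Cyp26a1, Tril, Cited1, Fgf17, Hoxb5os, Mex3b, Hmcn1, Hoxc6, Ifitm1 and Dll1. All 10 were also lower in NMPs B of the first library, none of them past 2-fold there and 2 in the second. Cyp26a1 had 27.6 CPM [25.03, 30.4] in NMPs B and 91.5 [80.7, 103] in NMPs A of the second library, and 36.3 [25.1, 50.7] and 69.2 [67.3, 71.3] in the first. It was 3.31-fold [2.83, 3.87] and 1.91-fold [1.36, 2.76] lower. Tril, a co-receptor of Toll-like receptor signalling, had 23.0 against 56.5 CPM and 36.3 against 62.7. Cited1, a transcriptional co-regulator, had 56.1 against 108 and 149 against 166, so the first library hardly separated the clusters. Hoxb5os is annotated antisense to Hoxb5, and whether the counting used strand is not given in the sources used here.

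**Figure D4:**
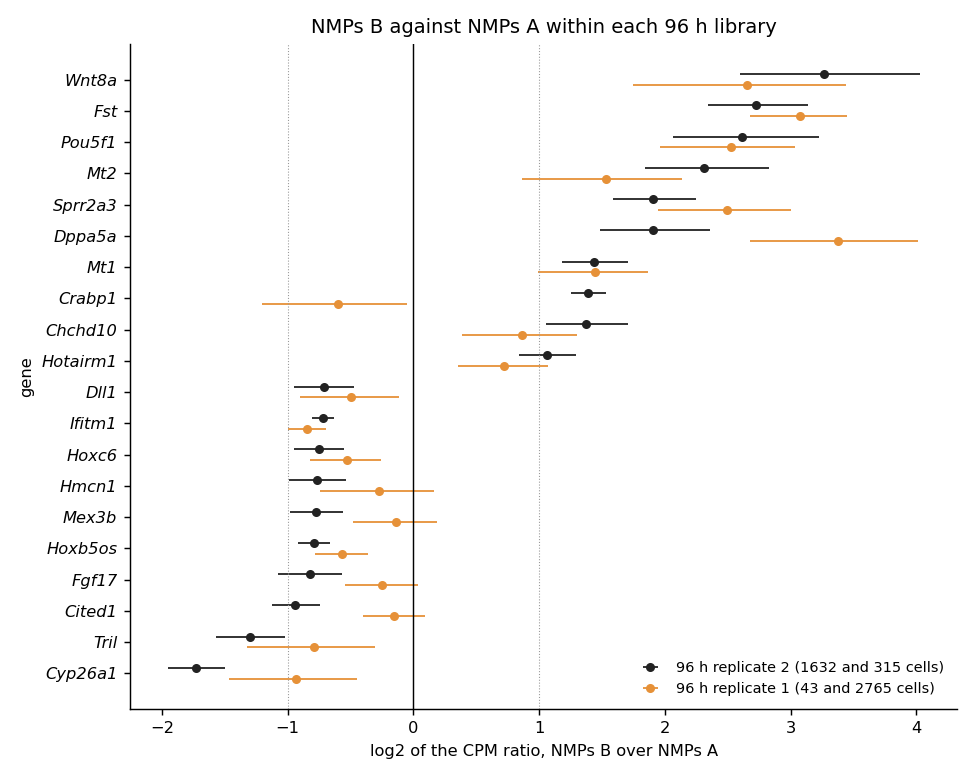
Log2 of the CPM ratio of NMPs B over NMPs A (horizontal axis) for the 10 highest and 10 lowest genes of the second 96 h library (vertical axis), in the second library and in the first; lines are exact 95% counting intervals and dotted lines mark 2-fold. Crabp1 is the gene that lies on opposite sides of 0.

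Promoters are shown for Cyp26a1 and Pou5f1, the genes of the retinoic acid axis and of pluripotency that stood lowest and among the highest in NMPs B. Both sequences hold the 250 bases before the start site in RefSeq's GRCm38.p6 table, on the plus strand. Cyp26a1 lies at chr19:37697558-37697807, with the start of the annotated gene in its last bases, and Pou5f1 at chr17:35505782-35506031. Capitals mark a direct repeat of AGTTCA with 5 bases between in the first and AGGTCA in the second, both searched on either strand, as motifs that nuclear receptors such as those for retinoic acid are known to bind.
Cyp26a1: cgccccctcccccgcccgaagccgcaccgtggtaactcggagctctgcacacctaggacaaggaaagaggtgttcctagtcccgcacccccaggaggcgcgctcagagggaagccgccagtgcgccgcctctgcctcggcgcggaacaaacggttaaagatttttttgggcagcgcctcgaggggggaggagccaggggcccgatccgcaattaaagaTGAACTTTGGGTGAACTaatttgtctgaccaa
Pou5f1: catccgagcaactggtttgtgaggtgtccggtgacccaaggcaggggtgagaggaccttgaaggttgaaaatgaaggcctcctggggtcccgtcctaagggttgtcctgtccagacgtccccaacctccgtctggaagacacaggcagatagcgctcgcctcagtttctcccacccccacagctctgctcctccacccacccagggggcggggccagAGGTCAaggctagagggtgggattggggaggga
The repeat ran from 32 to 16 bases before the Cyp26a1 start and was in 7 of 32851 promoter windows of the same length (0.0213%). AGGTCA lay 33 to 28 bases before the Pou5f1 start and was in 14.02% of windows. Windows were in the table for 4 of the 8 marker genes, and Pou5f1 alone of these held AGGTCA. A match describes the letters and is no evidence of binding in these cells.

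Signalling genes differed in part. Of 5 Wnt ligands counted, Wnt8a alone was past 2-fold higher in NMPs B of the second library, and the median log2 ratio of the 5 was -0.36, against -0.01 over all counted genes. Wnt3a, the NMP ligand, had 22.4 CPM in NMPs B and 35.6 in NMPs A of the second library, and 43.7 and 33.1 in the first. Among 11 Wnt response genes counted, Apcdd1, an inhibitor of Wnt receptors, was past 2-fold lower at 8.09 against 24.1 CPM, and it had 7.46 against 25.4 in the first library. Axin2, a feedback inhibitor, had 80.8 against 127 and 88.5 against 111.

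All 6 FGF ligands and carriers counted had ratios under 1 in the second library, with a median log2 ratio of -0.49 and none past 2-fold. Fgf8 had 299 against 331 CPM, Fgf17 34.5 against 61.1 and Fgf4 27.4 against 49.6. Of the 6, 4 had in the first library ratios above 1, and Fgf4 had 39.5 against 19.8 CPM, so this direction was not shared. The 11 FGF response genes had a median log2 ratio of -0.0037 in the second library and 0.20 in the first.

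Of the Nodal and BMP genes, Fst was the 1 of 6 counted that was past 2-fold in the second library. Lefty1, the secreted Nodal antagonist, stayed under the filter but stood apart in both libraries, with 15.9 CPM in NMPs B and 0.349 (1 UMI) in NMPs A of the second and 16.0 against 0.561 in the first, a ratio of 28.5 [14.6, 53.2]. It was singled out after its values were seen. Nodal itself had 1.24 CPM in NMPs B of the second library and 37.5 in Pluripotent/PGC. Apln is described above, and its receptor gene Aplnr had 10.1 CPM in NMPs B, 16.1 in NMPs A and 39.5 in early PSM.

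Of 18 epithelial junction genes 8 were counted, and 6 had ratios above 1 in the second library, with Cdh1 past 2-fold. In the first library 7 of 8 had ratios above 1, and Cdh1, Epcam, Cldn6 and Krt8 were past 2-fold. Epcam, an epithelial adhesion molecule, had 88.0 CPM in NMPs B and 48.5 in NMPs A of the second library, and 176 and 60.9 in the first. The median log2 ratio of the list was 0.25 and 1.09. Of 7 mesenchymal genes counted none was past 2-fold in the second library and Zeb1, a repressor of Cdh1, was past 2-fold lower in the first.

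Hox genes of the middle of the clusters were mixed between NMPs B and NMPs A. Of the 12 genes of groups 5 to 9 counted in the second library 7 were lower and 5 higher in NMPs B, with a median log2 ratio of -0.30, and Hoxa9 alone was past 2-fold lower and Hoxb5 alone past 2-fold higher. The first library had 8 of 13 lower, with a median of -0.18, and Hoxb5 alone past 2-fold, higher in NMPs B. Hoxa9 had 10.6 against 22.3 CPM and 29.9 against 42.4, Hoxc6 55.8 against 93.9 and 114 against 165, Hoxc8 188 against 301 and 283 against 321, and Hoxc9 25.4 against 42.9 and 49.1 against 93.7. These 4 were lower in NMPs B in both libraries. Hoxb5 went the other way, with 22.4 against 7.68 CPM and 20.3 against 7.56, a ratio of 2.92 [1.89, 4.71] and 2.68 [1.60, 4.23]. Hoxa5 had 18.3 against 10.1 and 18.1 against 11.4. Groups 1 to 4 had median log2 ratios of -0.16 and -0.20.

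Genes of groups 10 to 13 summed to 0.914 CPM in NMPs B of the second library, 0.698 in NMPs A and 173 in NMPs C, the progenitor cluster of 120 h. The sum over groups 5 to 9 was 1051, 1243 and 1909 CPM. Of the 12 genes of groups 5 to 9 counted in the second 96 h library, 5 (Hoxa7, Hoxa9, Hoxc5, Hoxc6 and Hoxc9) increased in the order NMPs B, NMPs A, NMPs C within the libraries of batch 4, and 7 did not. Hoxb8, for one, had 279, 268 and 175 CPM, and Hoxb9 288, 302 and 280.

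**Figure D5:**
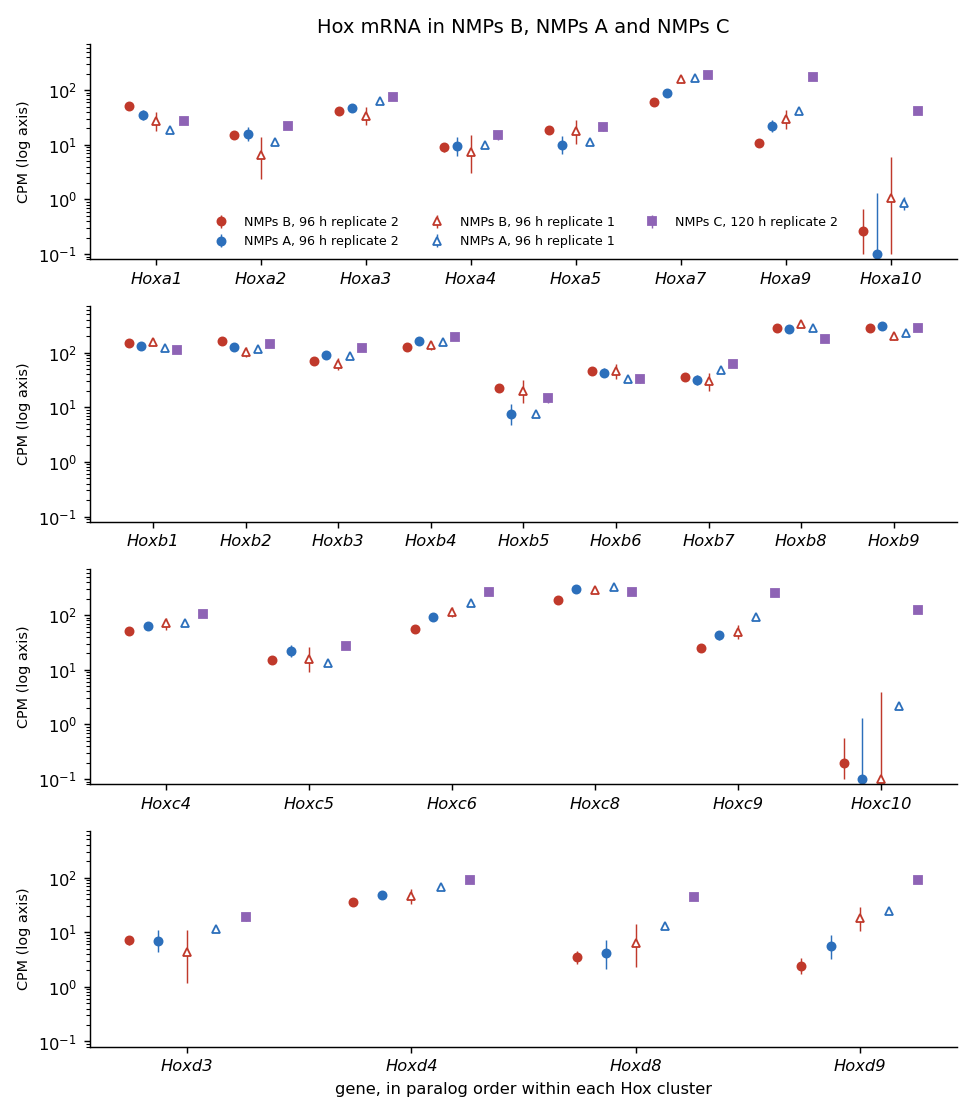
CPM (log axis) of Hox genes with at least 10 CPM in a plotted sum, by Hox cluster and paralog (horizontal axis), in NMPs B and NMPs A of both 96 h libraries and NMPs C of the second 120 h library; lines are exact 95% Poisson intervals, and values under 0.1 are drawn at 0.1. Hoxa9, Hoxc6 and Hoxc9 are lowest in NMPs B of the second library, and Hoxb5 is higher in NMPs B than in NMPs A.

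Against early PSM of the same library, 174 of 7866 genes (2.21%) were past 2-fold higher in NMPs B and 133 (1.69%) lower. In the first library 266 of 7527 (3.53%) were higher and 195 (2.59%) lower, a split of 212 and 235 with TMM scaling factors, which reweight library sizes. The highest in the second library were Sox2, Slc2a3, Fgfbp3, Hoxc8, Nkx1-2, Pdgfa, Epha5, Mest, Epcam and Wnt8a. Sox2 had 143 CPM against 9.55, and 57.6 against 4.84 in the first library. Slc2a3 and Slc2a1, glucose transporters, had 391 against 35.3 and 912 against 188 CPM. NMPs A of that library had 379 and 732 CPM, so both transporters were high in either NMP cluster. Hoxc8 had 188 against 22.9 CPM.

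The lowest were Aldh1a2, Pcdh19, Plxna2, Foxc1, Phlda2, Rnf213, Tbx6, Lmo2, Cited1 and Fn1. Aldh1a2, which makes retinoic acid, had 4.31 CPM against 202, Tbx6, the PSM-determining factor, 15.8 against 177, and Fn1 (fibronectin) 73.0 against 578. All 8 PSM genes counted had ratios under 1, 6 of them past 2-fold, and 10 of 14 NMP genes were past 2-fold higher. Of 8 Notch and clock genes 5 were past 2-fold lower, among them the ligand Dll1 at 40.1 against 226 CPM, and Hes1 was past 2-fold higher. Pou5f1 had a ratio of 2.02 [1.69, 2.41] in the second library, within 2-fold on the scale with 1 CPM added.

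Against NMPs C of the second 120 h replicate, the library of the same batch at the later time, 134 of 7998 genes (1.68%) were past 2-fold higher in NMPs B and 165 (2.06%) lower. The split was 161 and 132 with TMM factors. Time and cluster cannot be told apart here. All 8 markers were past 2-fold higher, led by Sprr2a3, which had 0 UMIs in NMPs C and was at least 262-fold higher by a floor of 3 UMIs in that sum. Fst had 130 against 1.91 CPM, Stmn2 102 against 2.73, Pou5f1 57.8 against 1.91, Wnt8a 60.4 against 2.05 and Dppa5a 61.5 against 1.23. Cdx1, the caudal factor of early trunk, had 238 against 21.2. The FGF ligands Fgf3, Fgf4, Fgf8 and Fgf15 were past 2-fold higher and Fgf17 lower.

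The lowest against NMPs C were Hoxc10, Hoxd9, Hoxa9, Fbn2, Hoxc9, Wnt5a, Plagl1, Gm49708, Sema3a and Palld. Hoxc10 had 0.196 CPM against 124 and Hoxc9 25.4 against 258. Wnt5a, a ligand of non-canonical signalling, had 27.4 against 170 CPM. T was 2.16-fold [1.96, 2.38] higher in NMPs B, while Sox2 was 1.53-fold [1.44, 1.64] lower. Of 6 spinal cord and neural genes counted all had ratios under 1, and Sox1, Irx3, Ncam1 and Zic1 were past 2-fold lower.

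The 14 NMPs B cells of 120 h held too few UMIs to judge the marker set. The 10 cells of the second 120 h replicate held 8 marker UMIs in 90231, on 4 of the 8 genes, and 0 of Pou5f1, Cdh1, Apln and Sprr2a3. At this depth a 0 says little for Cdh1 and Apln, which had 25.7 and 21.1 CPM in NMPs B of the second 96 h library. The 8 markers summed to 620 CPM in that sum and to 36.6 CPM in NMPs C of the second 120 h replicate. The 4 cells of the posterior part held 4 in 44574. They had 14 and 7 UMIs of Hoxc9, and 11 and 5 of Sox2.

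Across the libraries, NMPs B of the second 96 h replicate against NMPs A of the first had 165 of 7740 genes (2.13%) past 2-fold higher and 52 (0.672%) lower, and 126 and 79 with TMM factors, which moved all ratios by -0.18 on the log2 scale. The highest were Dppa5a, Wnt8a, Sprr2a3, Fst, Crabp1, Pou5f1, Mt2, Peg10, Mt1 and Gm5805. Of the 165 higher genes 94 (57%) were also past 2-fold higher in early PSM of the second library over early PSM of the first, which is 67.6% of the 139 there, where 1.83% of all 7599 counted genes were past 2-fold higher. Of the 52 lower genes 21 (40.4%) were lower there too, which is 60.0% of the 35 there, and 0.461% of all counted genes were lower. Gm5805, a ribosomal pseudogene, had 68.1 CPM in NMPs B, 69.8 in NMPs A and 70.5 in early PSM of the second library and 12.8, 11 and 11.8 in the first. Its level thus followed the library in these 3 clusters.

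Among the NMPs B cells of the second 96 h library, variance over mean of thinned UMIs had a median of 1.04 over 3055 genes of at least 50 CPM, a value of 1 being what counting alone gives, and 30 genes exceeded 2. The highest were Malat1 at 10.3, Crabp1 at 6.87, Dqx1 at 5.57, Gm42418 at 4.97, Sprr2a3 at 4.22, Dppa5a at 3.68 and Gm10925 at 3.49. Malat1 is a nuclear RNA, and Gm42418 is known to overlap ribosomal RNA. Fst stood at 3.06 and Mt1 at 3.06. The same quantity in NMPs A of that library was 2.40 for Crabp1, 2.24 for Sprr2a3, 1.46 for Dppa5a, 1.49 for Fst and 1.37 for Mt1, where Crabp1 for one stood at 156 CPM against 410. In the 43 NMPs B cells of the first library it was 3.87 for Fst, 2.81 for Sprr2a3, 1.44 for Mt1, 1.22 for Dppa5a and 0.905 for Crabp1. Wnt8a, at 1.12, and Nkx1-2, at 1.19, were close to the median. T had 1.88 and Sox2 1.41. The remaining genes of the 15 highest were Tpm1, Tmem245, Dnajb14, Ube2c, Ncl and Meg3, between 2.65 and 2.98.

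Markers of other cell types were present to different extents. In NMPs B of the second 96 h library the 12 PSM genes summed to 686 CPM, against 959 in NMPs A and 2288 in early PSM, and the 15 spinal cord and neural genes to 207, against 259 and 140. Of 13 genes of surface ectoderm and squamous epithelium 10 were measured and summed to 118 CPM, of which Sprr2a3 gave 107, against 41.5 in NMPs A. In NMPs B of the second 96 h library the 13 endoderm genes summed to 31.1 CPM, with 4 at 0, the 12 somite genes to 32.7, with 2 at 0, the 8 endothelial and blood genes, of which 6 were measured, to 11.9 and the 7 node and notochord genes to 7.77. NMPs A of that library had 18.9, 24.1, 13.96 and 7.33 CPM. Germ cell genes summed to 107 CPM against 56.9 in NMPs A, 78.5 in early PSM and 234 in Pluripotent/PGC. Of the 10, 2 were above 10 CPM in NMPs B, and Dppa3 and Prdm14 were at 0. Ifitm3, of this list, was past 2-fold higher in early PSM of the second library than of the first. Of 13 endoderm genes Trh alone was counted, at 17.9 against 6.28 CPM in NMPs A and 490 in Pluripotent/PGC. Genes of p53, S phase, glycolysis, heat shock and G2M lists had no member past 2-fold between NMPs B and NMPs A of the second library, where few genes of any kind were (0.407% and 0.127%). In the first library Trp53inp1, of the p53 list, and Cdc6, of the S phase list, were past 2-fold higher in NMPs B, at 41.6 against 16.4 and 46.9 against 22.7 CPM. All 10 G2M genes had ratios under 1, with a median log2 ratio of -0.17, and -0.40 in the first library, where the deposited calls put 20.9% [10.0, 36.0] of the 43 NMPs B cells and 38.1% [36.3, 39.9] of NMPs A in G2M.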

How the data were processed

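Cells from pools of wild-type stembryos were profiled by 10x Genomics single-cell RNA-seq. Per the labels, the authors used Cell Ranger 6.0 on mm10 and Seurat 4.0.2, and deposited raw UMI counts per gene and cell, with a table of cluster names, mitochondrial percent and cell-cycle score values. The cluster names were used as given, and no doublet caller was run, NMPs B cells holding 0.377 to 2.28 times their library's mean of UMIs. Counts were summed per cluster and library and compared as CPM with 1 CPM added, without a test. The 6 libraries held 24303317 to 117580506 UMIs. Cells were thinned to 5000 UMIs, or 3000 as an alternative. Named genes were the 8 markers, and the 10 highest and 10 lowest ratios at 50 CPM or more in the higher sum, without mitochondrial, Xist and Y-linked genes, and the 15 highest variance over mean, together with members of the gene lists. Members and lists were chosen with earlier results of these data known. Ratios, intervals and thinning were tested on simulated data. Python 3.11.15, scipy 1.17.1 and edgeR 4.0.16 (TMM factors only) were used.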

Additional observations from a re-analysis of the deposited data

How the results depend on the processing

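Raising the filter to a mean of 50 CPM left fewer genes and lowering it to 1 CPM admitted more, by construction. In the second 96 h library NMPs B against NMPs A then had 7 or 220 genes past 2-fold higher and 1 or 65 lower, and against early PSM 40 or 603 higher and 36 or 336 lower. Against NMPs A of the first library there were 45 or 648 higher and 20 or 134 lower, and against NMPs C 30 or 505 higher and 45 or 388 lower. Within the first library NMPs B against NMPs A had 5 or 678 higher and 2 or 442 lower, and against early PSM 45 or 1264 higher and 34 or 676 lower. With a pseudocount of 5 CPM, 5 genes were lower than in NMPs A in the second library, 43 were higher and 17 lower in the first, and 176 were higher than in early PSM of the first. TMM factors gave 79 lower genes against NMPs A of the first library. The other counts stayed within 1.5 times, including those with every cell weighted equally, those without cells over 1.5 times the library's mean of UMIs, and those that asked for a counting interval without 1, which was chosen after seeing the data. T and Sox2 together were found in 7.72% of NMPs B cells thinned to 3000 UMIs and in 31.1% unthinned, and 15 genes exceeded a variance over mean of 2 at 3000 UMIs. Over the named genes and shares of cells, 322 values moved within and 100 beyond their counting interval, and none changed sign.

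No paired analysis was possible because NMPs B against NMPs A came from no test, the cells having been clustered on the same values; the ratios within each of the 96 h libraries are given in its place. NMPs B held at least 20 cells in no library of 120 h, so the planned edgeR comparison of NMPs B between 96 h and 120 h was not run. The comparison with early PSM in the first library was added after seeing the data. Single libraries behind nearly all cells, and 43 cells in the other, set the precision.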
